A study of Homo sapiens with 52 samples.

Results

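FOXF1 and the 4 named genes beside it on chromosome 16, FENDRR, MTHFSD, FOXC2 and FOXL1, were followed through all 52 gene expression profiles of the series. The 5 genes were picked by symbol out of the 27043 genes listed. FOXF1 was chosen for its low values under the deacetylase inhibitor LAQ824 in these same files. Its changes are therefore given as a description and were not tested. The 4 neighbours were picked for their place beside FOXF1, with earlier results of these data known. Not every gene of the interval was taken, as FLJ30679 and FOXC2-AS1 were left out. The neighbours that passed a filter on low values were tested. The question was whether the block falls as a whole when FOXF1 falls, or whether FOXF1 falls alone.

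The profiles are RNA-seq of RH4, a PAX3-FOXO1 fusion-positive rhabdomyosarcoma (FP-RMS) cell line, exposed to small molecules that act on chromatin. In the screen, 20 compounds were each given for 6 h at a high dose of 10 µM and a low dose of 1 µM (5 µM and 0.5 µM for LAQ824, Cpd50 and GSKJ4), 1 library each, beside 4 solvent controls, 2 with 0.2% DMSO titled high and 2 with 0.1% DMSO titled low. A separate experiment set 1 µM N1302, a histone deacetylase (HDAC) inhibitor, against 0.1% DMSO for 6 h, and a time course set 1 µM entinostat, directed at HDAC1/2/3, against 0.1% DMSO at 1, 6 and 24 h, with 1 library per point. By the targets on the labels, 7 screen compounds were placed on the acetylation axis, which takes in readers, writers and erasers of acetylation. They are LAQ824 (HDAC), WT161 (HDAC6), MC 1568 (HDAC4/5), Merck60 (HDAC1/2), OJI-1 (HDAC8), Bromosporin (bromodomains) and SGC-CBP30 (the CREBBP/EP300 bromodomain). The 11 compounds of the methylation axis are Cpd50, EZ-005, GSKJ4, GSKLSD1, LSD-519, LSD-690, PFI-2, SGC0946, UNC-1215, UNC0638 and UNC1999, and PFI-3 (SMARCA4) and Trametinib (MEK1/2) belong to neither. Screen titles read RH41 where the cell line label reads RH4, so screen samples were not tested against the other samples. All cells carry the fusion, and all samples derive from established lines, so the values describe those lines only.

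FOXF1 encodes a forkhead transcription factor of the splanchnic mesoderm that is needed for lung, gut and vessel development and answers to Hedgehog signals there. FENDRR is a long non-coding RNA read in the opposite direction from a start close to that of FOXF1, and it is known from lateral plate mesoderm, heart and body wall. FOXC2 and FOXL1 are forkhead genes of mesenchyme, FOXC2 in vessels and lymphatics and FOXL1 in the gut wall, and MTHFSD encodes a protein with a domain related to a folate enzyme. Genes with linked developmental roles often share distant enhancers, and inhibitors of HDACs or bromodomains are known to lower many enhancer-driven transcripts.

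In the hg19 coordinates of the files, the block runs along chromosome 16 from 86508131 to 86615304, a span of 107 kb. FENDRR (86508131 to 86542466, minus strand, lncRNA) ends 1666 bases before FOXF1 (86544133 to 86548070, plus strand). MTHFSD (86563782 to 86588841, minus strand) follows FOXF1 after 15711 bases. FOXC2 (86600857 to 86602537, plus strand) comes 12015 bases after MTHFSD, and FOXL1 (86612115 to 86615304, plus strand) 9577 bases after FOXC2. FOXC2 overlaps the antisense gene FOXC2-AS1 and, since the use of strand in counting is not given in the sources used here, reads in the overlap cannot be told apart.

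The promoter windows of FENDRR and MTHFSD are shown because these minus-strand neighbours on either side of FOXF1 behaved differently. Both were taken from RefSeq (GRCh38.p14, a later build than that of the files), 250 bases before to 50 bases after the start, and FOXF1, FOXC2 and FOXL1 have no entry in that table. Capitals mark the forkhead core TGTTTAC and the GC box GGGCGG on either strand, and no capitals overlap.
FENDRR (chr16:86508811-86509110, minus strand): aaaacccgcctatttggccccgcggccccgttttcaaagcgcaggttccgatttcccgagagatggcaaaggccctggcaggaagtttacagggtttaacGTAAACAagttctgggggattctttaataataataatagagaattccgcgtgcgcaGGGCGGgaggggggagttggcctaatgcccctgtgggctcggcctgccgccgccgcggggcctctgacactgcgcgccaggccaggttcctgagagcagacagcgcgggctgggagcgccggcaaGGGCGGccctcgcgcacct
MTHFSD (chr16:86555186-86555485, minus strand): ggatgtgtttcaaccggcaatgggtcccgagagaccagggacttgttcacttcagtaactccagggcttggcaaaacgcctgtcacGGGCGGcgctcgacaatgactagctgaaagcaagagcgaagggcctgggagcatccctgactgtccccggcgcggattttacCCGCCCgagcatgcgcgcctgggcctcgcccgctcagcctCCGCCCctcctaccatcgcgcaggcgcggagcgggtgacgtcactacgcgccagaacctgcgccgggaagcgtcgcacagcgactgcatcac
The FENDRR window holds 1 forkhead core, at position -150 from the start, and the MTHFSD window holds 0; 3.42% of the 35116 promoter windows of the table hold it. GC boxes number 2 in FENDRR and 3 in MTHFSD and occur in 44.95% of windows. The E-box CAGCTG, present in 17.9% of windows, the TATA box TATAAA (11.5%) and the GLI motif GACCACCCA (0.236%), each searched on both strands, are in neither window. Both windows are rich in G and C, at 62.3% for FENDRR and 65% for MTHFSD against a median of 58.7%.

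Library depth, recovered from the values, ran from 5646972 to 40825328 reads. The 2 screen libraries of each DMSO concentration differed by a shift between their flow cells that both concentrations shared (variance 3.99 times the counting noise over 10376 genes) and beyond it by no more than sampling noise (1.02 times), so they were averaged and counted as 1 sample, which leaves n = 2 for DMSO. No DMSO library was sequenced on the flow cell of 14 compounds, Bromosporin, SGC-CBP30 and WT161 among them, or on that of GSKLSD1 and UNC-1215, so for all of these the flow cell and the treatment cannot be told apart against DMSO. All 8 rhabdomyosarcoma markers were present in the controls (summed TPM 3405 to 3537), and each of the 4 endothelial, 4 epithelial and 4 blood markers stayed under 1 TPM there. Of the endothelial markers, PECAM1 was at or below 0.147 and CDH5 at or below 0.0297 TPM. VWF ran from 0.235 to 0.517 TPM and TEK from 0.411 to 0.980 TPM. Under LAQ824 the summed rhabdomyosarcoma markers stood at 1272 to 1333 TPM; in bulk samples fewer cells of a type and less RNA per cell cannot be told apart. Levels are given in TPM, a transcript abundance scaled for gene length and library size, and changes are differences in log2(TPM + 1) from the DMSO of the same title. Median-ratio scaling moved differences in log2 TPM from DMSO by -0.09 to 0.24 in the screen, most for Bromosporin at 10 µM, and by 0.12 for entinostat at 6 h.

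FOXF1 was the most abundant member in the controls and FOXL1 was barely detected. In the screen the 4 DMSO libraries read 107, 104, 115 and 112 TPM for FOXF1 (109 ± 5.82, SD, n = 2 concentrations). FENDRR followed at 32.4 ± 0.727 TPM, FOXC2 at 24.6 ± 0.380 TPM and MTHFSD at 12.3 ± 0.460 TPM, and the 4 libraries of each of these genes did not overlap those of the next. FOXL1 lay between 0.410 and 0.771 TPM on 8 to 20 reads. Counted as 1 sample per concentration, the DMSO libraries allow no test of their own between concentrations, and the mean log2 levels at 0.2% and 0.1% differed by 0.11 for FOXF1, -0.04 for FENDRR, -0.03 for FOXC2 and 0.07 for MTHFSD. Controls of the other experiments were lower: FOXF1 read 53.3, 58.8 and 57.4 TPM at 1, 6 and 24 h of the time course and 17.3 TPM in the N1302 control. FENDRR moved the same way, with 23.8, 20.5 and 21.7 TPM in the time course and 4.43 TPM in the N1302 control, and FOXC2 read 13.96, 12.8, 11.1 and 8.29 TPM in the same 4 samples. Between the screen and the other experiments, the experiment and the title of the cell line cannot be told apart. The N1302 and time-course controls, both titled RH4, also differed, with FOXF1 at 17.3 and 58.8 TPM at 6 h, which was not tested.

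**Figure D1:**
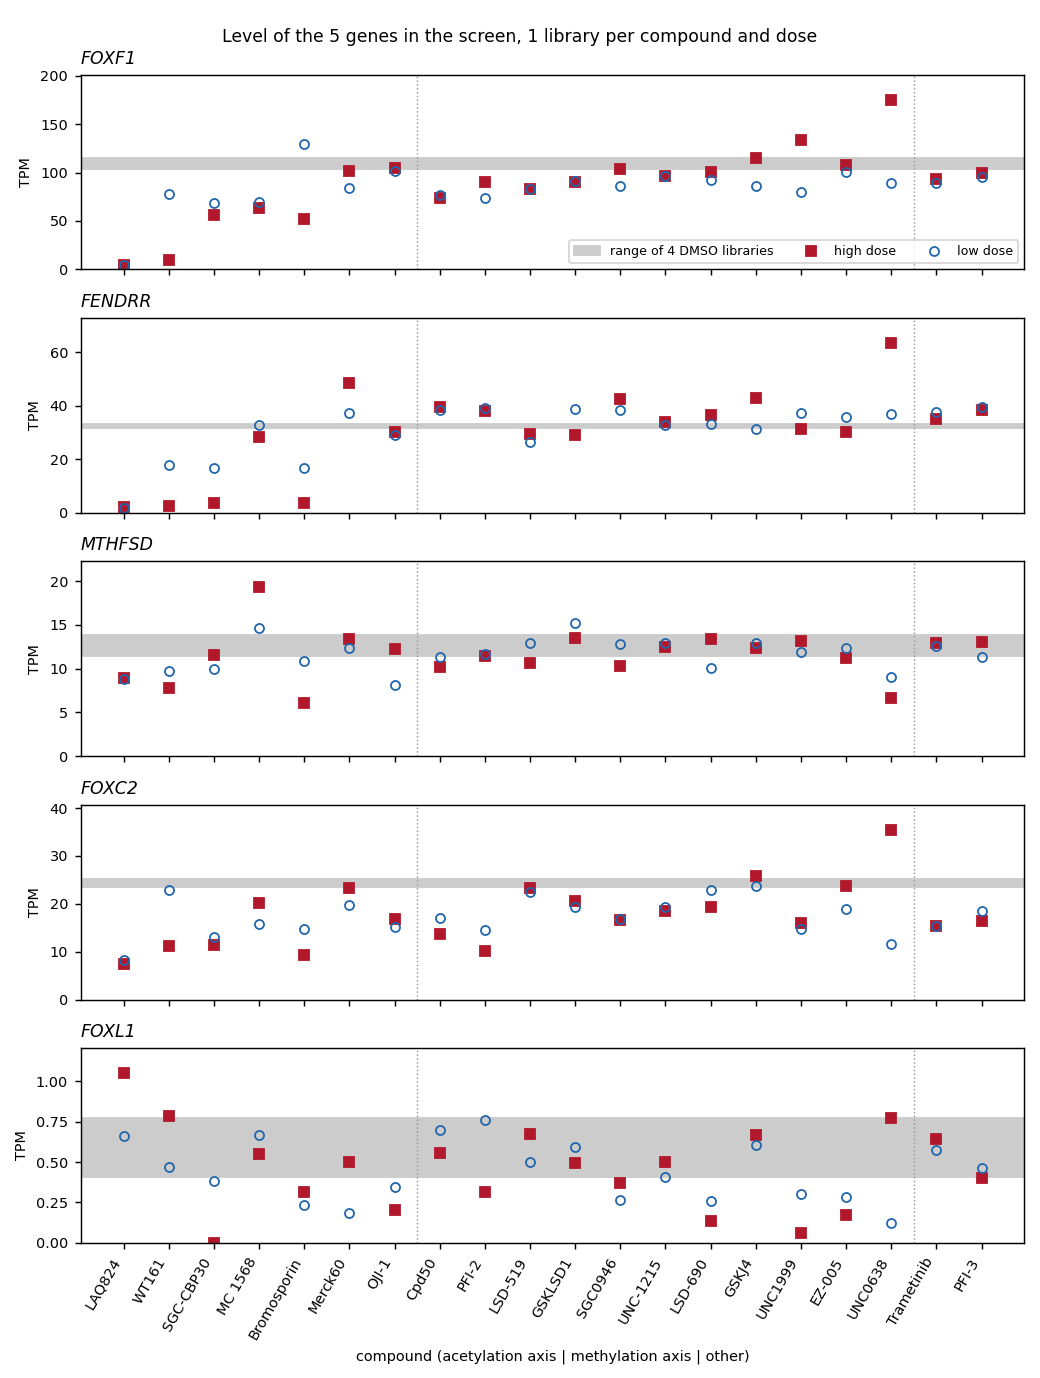
Level in TPM (y axis, linear from 0) of each of the 5 genes under the 20 screen compounds (x axis), 1 library per point, with filled squares for the high dose, open circles for the low dose and a grey band for the range of the 4 DMSO libraries. FOXF1 sits at 4.58 and 4.08 TPM under LAQ824 and FENDRR at 1.97 and 1.91 TPM, while MTHFSD keeps above 6 TPM in every library.

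FOXF1 itself, the gene chosen for its fall, ranged from 4.08 to 175 TPM over the 40 treated screen libraries, with a median of 89.7 TPM. Under LAQ824 it read 4.58 TPM at 5 µM (123 reads) and 4.08 TPM at 0.5 µM (129 reads), which is 24.8 and 25.8 times below the matching DMSO. WT161 gave 10.1 TPM at 10 µM and 78.0 TPM at 1 µM. Those 3 libraries stood below 11 TPM, and no other screen library fell under 50 TPM.

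Smaller reductions of FOXF1 came with SGC-CBP30, at 56.3 TPM for 10 µM and 68.1 TPM for 1 µM, and with MC 1568, at 63.4 and 69.9 TPM. Bromosporin read 52.4 TPM at 10 µM and 129 TPM at 1 µM, so its doses lay on opposite sides of the controls. In the methylation axis, Cpd50 had the lowest mean change (-0.53), with 73.6 TPM at 5 µM and 77.3 TPM at 0.5 µM. The highest FOXF1 level of all was 175 TPM under 10 µM UNC0638, against 89.4 TPM at 1 µM; these libraries held 6771428 and 6409043 reads. Of the 40 treated libraries, 34 lay below the lowest DMSO library and 4 above the highest, and the 28 libraries of the flow cell of 14 compounds had a median of 91.1 TPM.

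FENDRR, the non-coding RNA beside FOXF1, fell under 3 compounds. Under LAQ824 it read 1.97 TPM at 5 µM (64 reads) and 1.91 TPM at 0.5 µM (73 reads) against 31.5 to 33.1 TPM in DMSO, 16.1 and 17.2 times lower, with a mean log2 change of -3.50 ± 0.55 (SE) and an adjusted p of 1.02e-05 from limma. In that comparison 24.6% of the 16359 genes tested were called lower and 28.4% higher. WT161 gave 2.65 TPM at 10 µM (46 reads) and 17.8 TPM at 1 µM (220 reads), a change of -2.01 ± 0.55 with adjusted p = 0.00669; 14.3% of genes were called lower and 17.7% higher. Bromosporin gave 3.59 TPM at 10 µM (88 reads) and 16.6 TPM at 1 µM (206 reads), a change of -1.89 ± 0.55 with adjusted p = 0.00916; 23.4% of genes were called lower and 12.4% higher. All 6 libraries of these compounds lay below every DMSO library. Set against the other compounds of their flow cell, WT161 (-1.85, limma adjusted p = 0.000589) and Bromosporin (-1.73, adjusted p = 0.00102) still passed for FENDRR.

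The doses of WT161 and Bromosporin differed for FENDRR by -2.32 and -1.89 on the log2 scale (high minus low), whereas those of LAQ824 differed by 0.07. SGC-CBP30 had nearly the same FENDRR values as Bromosporin, 3.56 TPM at 10 µM (52 reads) and 16.6 TPM at 1 µM (251 reads), a change of -1.90 ± 0.55. It missed the threshold at adjusted p = 0.0532 (limma) in a comparison that called 2.68% of genes lower and 0.727% higher. It passed in limma fits of genes with a mean of at least 1 TPM (adjusted p = 0.0422) and with median-ratio scaling (0.0344). It also passed with all 4 DMSO libraries kept (0.00821) and against the other compounds of its flow cell (-1.74, 0.00770). It failed with 0.1 added in place of 1 (0.0618), without a filter (0.0908) and with only the compound and DMSO fitted (0.263). Each fit with a DMSO library left out failed as well (0.0510 to 0.0532).

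In the rest of the screen FENDRR did not fall below 26.3 TPM. Over the 20 libraries of the methylation axis without UNC0638 its lowest, median and highest values were 26.3, 36.0 and 42.8 TPM, and 12 of the 20 lay above the highest DMSO library. UNC0638 at 10 µM had the highest level of the series, 63.3 TPM, followed by 48.4 TPM for Merck60 at 10 µM. No compound passed the test for a rise of FENDRR: UNC0638 had a change of 0.56 ± 0.55 (limma, adjusted p = 0.525) and Merck60 one of 0.38 ± 0.55 (adjusted p = 0.991).

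FENDRR and FOXF1 did not keep a fixed ratio. FENDRR stood at 27.5% to 31.9% of the FOXF1 level (TPM) in the 4 DMSO libraries. Under LAQ824, where FOXF1 fell the further of the pair, it stood at 43.0% and 46.8%. Bromosporin moved it the other way, to 6.86% at 10 µM and 12.8% at 1 µM, as did SGC-CBP30 at 10 µM with 6.32%; at 1 µM SGC-CBP30 gave 24.3%. WT161 left it at 26.2% and 22.8%. The mean change of FENDRR minus that of FOXF1 was 0.87 for LAQ824, -0.11 for WT161, -1.09 for SGC-CBP30 and -1.49 for Bromosporin on the log2 scale. Of the methylation axis, Cpd50 had the largest such gap, 0.79, with FENDRR at 53.7% and 49.9% of FOXF1. Since FOXF1 was chosen for its values, this gap was not tested.

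**Figure D2:**
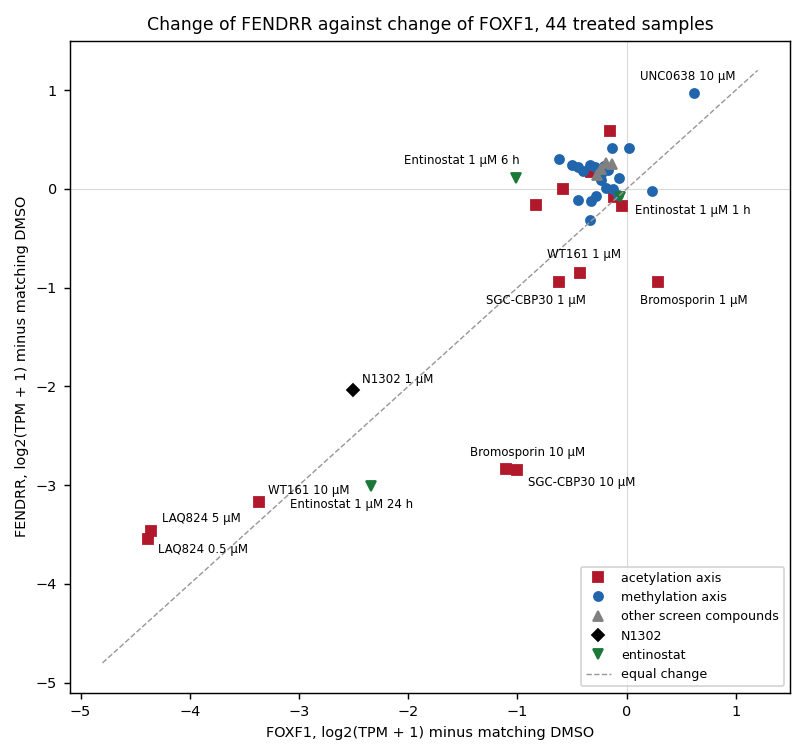
Change of FENDRR (y axis) against change of FOXF1 (x axis), both as log2(TPM + 1) minus the matching DMSO, for 44 treated samples, with symbols for the axes, N1302 and entinostat and a dashed line where both genes change equally. LAQ824 lies above the line, and the 10 µM points of Bromosporin and SGC-CBP30 lie far below it, with FENDRR changes of -2.84 and -2.85.

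FOXC2 fell less than FENDRR under the same inhibitors, and it was also below DMSO in most other treated libraries. Under LAQ824 it read 7.33 and 8.20 TPM (129 and 170 reads) at 5 and 0.5 µM against 23.4 to 25.2 TPM in DMSO, 3.32 and 3.03 times lower, with a log2 change of -1.55 ± 0.31 (limma, adjusted p = 0.000189). Bromosporin gave 9.34 TPM at 10 µM and 14.7 TPM at 1 µM, a change of -1.01 ± 0.31 with adjusted p = 0.0138. These 4 libraries do not overlap DMSO. SGC-CBP30 read 11.5 and 13.1 TPM (-0.94 ± 0.31, adjusted p = 0.0923) and WT161 11.2 and 23.0 TPM (-0.58 ± 0.31, adjusted p = 0.159), and neither passed.

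Of the 40 treated libraries, 36 had less FOXC2 than the lowest DMSO library, among them PFI-2 with 10.1 TPM at 10 µM and 14.4 TPM at 1 µM (68 and 50 reads, -0.96 ± 0.31, limma adjusted p = 0.235). Set against the other compounds of its flow cell, Bromosporin no longer passed for FOXC2 (-0.52, limma adjusted p = 0.0624). MC 1568, on the flow cell of LAQ824, read 20.1 and 15.8 TPM, above both LAQ824 libraries. UNC0638 at 10 µM had 35.4 TPM, the highest FOXC2 level of the series, and 11.6 TPM at 1 µM on 49 reads.

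MTHFSD lies between FOXF1 and FOXC2 and passed the test under Bromosporin alone. Its 40 treated libraries ran from 6.03 to 19.4 TPM with a median of 11.8 TPM, on either side of the DMSO range of 11.4 to 13.8 TPM. LAQ824 gave 8.97 and 8.76 TPM, 1.41 and 1.36 times lower than the matching DMSO (-0.43 ± 0.21, limma adjusted p = 0.0842). Bromosporin gave 6.03 TPM at 10 µM and 10.8 TPM at 1 µM, a change of -0.54 ± 0.21 that passed at adjusted p = 0.0426. That call was lost without the second 0.2% DMSO library (adjusted p = 0.0725), which held the highest MTHFSD value of the controls, and with median-ratio scaling (0.0632). Without the first 0.2% library instead, MTHFSD passed under LAQ824 (adjusted p = 0.0496) and UNC0638 (0.0364) too. WT161 had 7.82 and 9.68 TPM (-0.45 ± 0.21, adjusted p = 0.0985). Set against the other compounds of its flow cell, Bromosporin still passed for MTHFSD (-0.41, limma adjusted p = 0.0280).

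Outside the acetylation axis, UNC0638 had 6.60 and 8.99 TPM of MTHFSD (-0.61 ± 0.21, limma adjusted p = 0.0540), the reverse of its high FOXF1, FENDRR and FOXC2 at 10 µM. MC 1568 had the highest MTHFSD level, 19.4 TPM at 10 µM, and 14.6 TPM at 1 µM, both above every DMSO library, with a change of 0.43 ± 0.21 that did not pass (limma, adjusted p = 0.139).

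FOXL1, the farthest member, could not be tested. It reached 1 TPM in 1 library only, LAQ824 at 5 µM, with 1.05 TPM on 35 reads, and did not pass the filter on low values (at least 1 TPM in 2 samples). Over the 40 treated libraries it ranged from 0 to 1.05 TPM with a median of 0.468 TPM on 0 to 35 reads. The library at 0 was SGC-CBP30 at 10 µM, where a count of 0 allows up to 3 reads, or 0.199 TPM. In LAQ824, where FOXF1 was lowest, its 1.05 and 0.661 TPM lay above or within the DMSO range.

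Of the 5 members 4 passed the filter, and 3 of them were neighbours open to test, which gave 60 tests over the 20 compounds. Of these, 6 were called lower and 0 higher by limma: FENDRR for LAQ824, WT161 and Bromosporin, FOXC2 for LAQ824 and Bromosporin, and MTHFSD for Bromosporin. Bromosporin was the only compound with all 3 lower, where 23.4% of all genes were, and FOXF1 itself changed there by a mean of -0.40, from -1.10 at 10 µM to 0.29 at 1 µM. LAQ824, with the lowest FOXF1, had FENDRR and FOXC2 lower in a comparison where 24.6% of all genes were lower, and WT161 had FENDRR lower where 14.3% were. The calls for WT161 and Bromosporin rest on the spread shared by all 20 compounds. With only the compound and DMSO fitted, limma's adjusted p was 0.236 for FENDRR under each of the pair, 0.188 for FOXC2 and 0.339 for MTHFSD under Bromosporin, none of which passed, while FENDRR (0.000186) and FOXC2 (0.000371) under LAQ824 passed. In those fits 0 of all 16359 genes were called for WT161 and 0 for Bromosporin, so the failures there are not particular to the neighbours. For LAQ824 that fit called 5841 genes lower and 6538 higher. The low dose alone gave 2 calls, both for LAQ824. Both doses of a compound stand in for replicates here, so the p-values measure the spread between single libraries at different doses.

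Between the axes the neighbours did not pass. The mean change of FENDRR was -1.30 ± 1.40 (SD, n = 7) over acetylation compounds and 0.15 ± 0.20 (n = 11) over methylation compounds, a difference of -1.45 ± 0.38 (SE) with adjusted p = 0.0568 by limma. Of 16359 genes, 0 (0%) were called in this comparison, 5018 had an unadjusted p under 0.05, and 1614 were called at the high dose alone, FENDRR among them (-1.92, limma adjusted p = 0.0376). FOXC2 differed by -0.38 (limma adjusted p = 0.140) and MTHFSD by -0.12 (adjusted p = 0.555). Within the flow cell of 14 compounds the FENDRR difference was -1.27 with adjusted p = 0.227. The spread within the acetylation axis was wide: Merck60, OJI-1 and MC 1568 had FENDRR changes of 0.38, -0.13 and -0.09.

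FOXF1 and FENDRR were lower under N1302 at 6 h in the separate experiment, with 1 library on each side and no test. FOXF1 read 17.3 TPM in DMSO (446 reads) and 2.22 TPM under N1302 (40 reads), 7.80 times lower. FENDRR read 4.43 TPM (138 reads) and 0.321 TPM (7 reads), 13.8 times lower, with a log2 change of -2.04 ± 1.096 (95% counting interval). FOXC2 went from 8.29 to 5.08 TPM (-0.61 ± 0.44) and MTHFSD from 7.11 to 3.93 TPM (-0.72 ± 0.36), while FOXL1 read 0.218 and 0.624 TPM on 7 and 14 reads. Past 2-fold on the log2(TPM + 1) scale, 19.3% of genes were lower and 11.6% higher in this comparison. Median-ratio scaling raised its log2 TPM differences by 0.33. With it the changes in log2(TPM + 1) were -2.28 for FOXF1, -1.97 for FENDRR, -0.33 for FOXC2 and -0.45 for MTHFSD. The intervals cover counting error only. They were computed for the log2 ratio of reads, while the added 1 shrinks the changes of low genes set beside them. With 0.1 added in place of 1 the FENDRR change was -3.43.

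Under entinostat, against the DMSO of the same time, FOXF1 was lower at 6 and 24 h and FENDRR at 24 h. At 1 h neither differed from DMSO beyond counting error, with FOXF1 at 51.3 against 53.3 TPM and FENDRR at 22.3 against 23.8 TPM. At 6 h FOXF1 read 28.7 TPM against 58.8 TPM in DMSO (1009 and 1654 reads), 2.05 times lower, a change of -1.01 ± 0.11 (95% counting interval), while FENDRR read 22.2 against 20.5 TPM (946 and 699 reads, 0.11 ± 0.14). At 24 h FOXF1 read 10.5 against 57.4 TPM, 5.46 times lower. FENDRR read 1.82 against 21.7 TPM at 24 h (67 and 869 reads), 11.9 times lower, a change of -3.01 ± 0.36. The 6 h changes depend on the control: against the mean of both 6 h RH4-titled DMSO samples, which takes in the low N1302 control, they were -0.16 for FOXF1 and 1.10 for FENDRR. FENDRR stood at 77.5% of the FOXF1 level at 6 h and at 17.3% at 24 h, and the DMSO samples at those times at 34.9% and 37.7%.

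The other members did not fall with entinostat. FOXC2 read 14.3, 13.0 and 16.3 TPM at 1, 6 and 24 h against 13.96, 12.8 and 11.1 TPM in DMSO, so that its 24 h value was the higher by 0.52 ± 0.24. MTHFSD read 9.24, 12.5 and 10.2 TPM against 7.41, 10.2 and 10.4 TPM. FOXL1 read 0.842 against 0.194 TPM at 24 h, on 32 and 8 reads, a change of 0.63. Its counting interval of ± 1.12 applies to the log2 ratio of reads, and with 0.1 added in place of 1 the change was 1.68. At 24 h, 6.06% of genes were at least 2-fold lower and 16.4% at least 2-fold higher. There was 1 library per point, so none of these differences has a replicate.

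**Figure D3:**
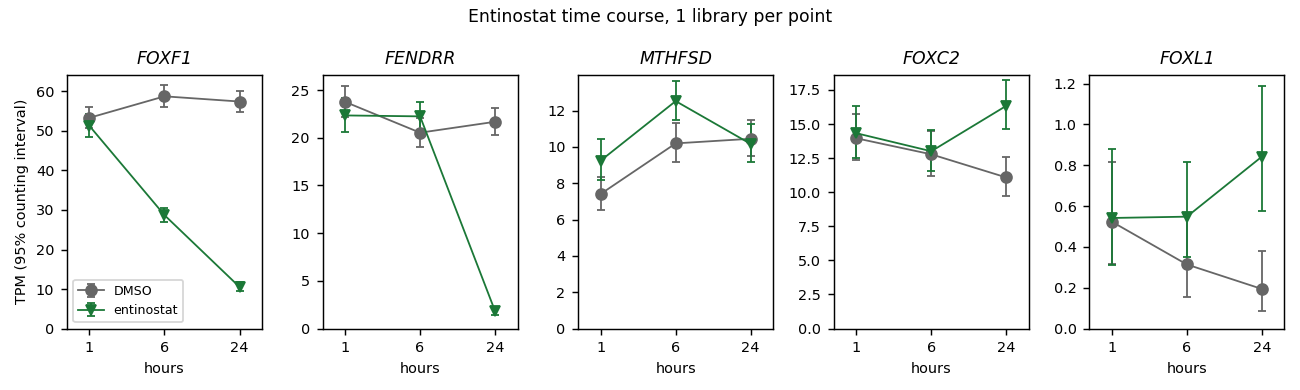
Level in TPM (y axis, linear from 0) of the 5 genes at 1, 6 and 24 h (x axis, evenly spaced) of DMSO (grey circles) or entinostat (green triangles), 1 library per point, with bars for the 95% counting interval. FOXF1 falls to 28.7 TPM at 6 h, when FENDRR is at 22.2 TPM, and FENDRR is at 1.82 TPM at 24 h, while FOXC2 and FOXL1 are above DMSO.

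Apart from the 5 members, most genes near FOXF1 were not lower where it was. Among these other genes, FLJ30679 and FOXC2-AS1 lie within the span of the block. Within 1 Mb on either side the files list 26 further genes, of which 18 passed the filter. Under LAQ824, 1 of the 18 was called lower and 9 higher, where 24.6% of all genes were lower and 28.4% higher, with a median change of 0.22 against 0.06 over all genes. Among the 9 were MIR6774, FOXC2-AS1 and FLJ30679, with at most 1, 2 and 5 reads in any screen DMSO library. The 1 gene lower was LINC01082, a non-coding RNA 311 kb before FOXF1, with 31.3 and 34.5 TPM against 55.1 to 60.6 TPM in DMSO (-0.81 ± 0.25, limma adjusted p = 0.01). It was also called lower under WT161 (-0.97, adjusted p = 0.00508), and under entinostat it read 80.7 TPM at 6 h and 9.18 TPM at 24 h against 72.8 and 71.5 TPM; LINC01082 was named after its values were seen.

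The 4 called flanking genes with the largest changes under LAQ824 were all higher. FLJ30679, 40.9 kb after FOXF1 between MTHFSD and FOXC2, went from 0.0616 to 0.412 TPM in DMSO (1 to 5 reads) to 2.84 and 4.91 TPM (1.98 ± 0.27). MAP1LC3B, an autophagy gene, read 209 and 191 TPM against 61.6 to 69.9 TPM (1.62 ± 0.25), IRF8, a transcription factor of blood cells, 6.14 and 5.58 TPM against 1.23 to 1.39 TPM (1.57 ± 0.25), and ZCCHC14 78.1 and 77.1 TPM against 23.7 to 27.1 TPM (1.56 ± 0.22). FOXC2-AS1, which overlaps FOXC2, read 2.39 and 2.03 TPM under LAQ824 against 0 to 0.765 TPM in DMSO. Its DMSO libraries held 0 to 2 reads, and under WT161, Bromosporin, SGC-CBP30, N1302 and entinostat it stayed under 1 TPM. The LAQ824 libraries, where it was high, were thus enough to pass it through the filter, so its call is no support for a rise. Those libraries were also enough to pass FLJ30679. Under LAQ824, FLJ30679 and FOXC2-AS1, both on few reads in DMSO, read above their DMSO range while FOXC2 beside them read below its own. That contrast was not tested.

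Under the other compounds the counts of flanking genes stood beside the following shares over all genes. WT161 had 2 of 18 lower and 5 higher (14.3% and 17.7% of all genes) and Bromosporin 5 lower and 3 higher (23.4% and 12.4%). The lower genes of both compounds take in MIR6774, at 0 TPM under each and on 0 to 1 reads in DMSO. SGC-CBP30 had 1 lower and 0 higher (2.68% and 0.727%), that gene being GSE1, which like LINC01082 was named for the count. For N1302, 0 of 18 were 2-fold lower and 4 were 2-fold higher (19.3% and 11.6% of all genes), among them MAP1LC3B at 373 against 112 TPM. For entinostat at 24 h 3 were lower and 2 higher (6.06% and 16.4% of all genes), with medians of 0.12 over the 18 and 0.10 over all genes.

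**Figure D4:**
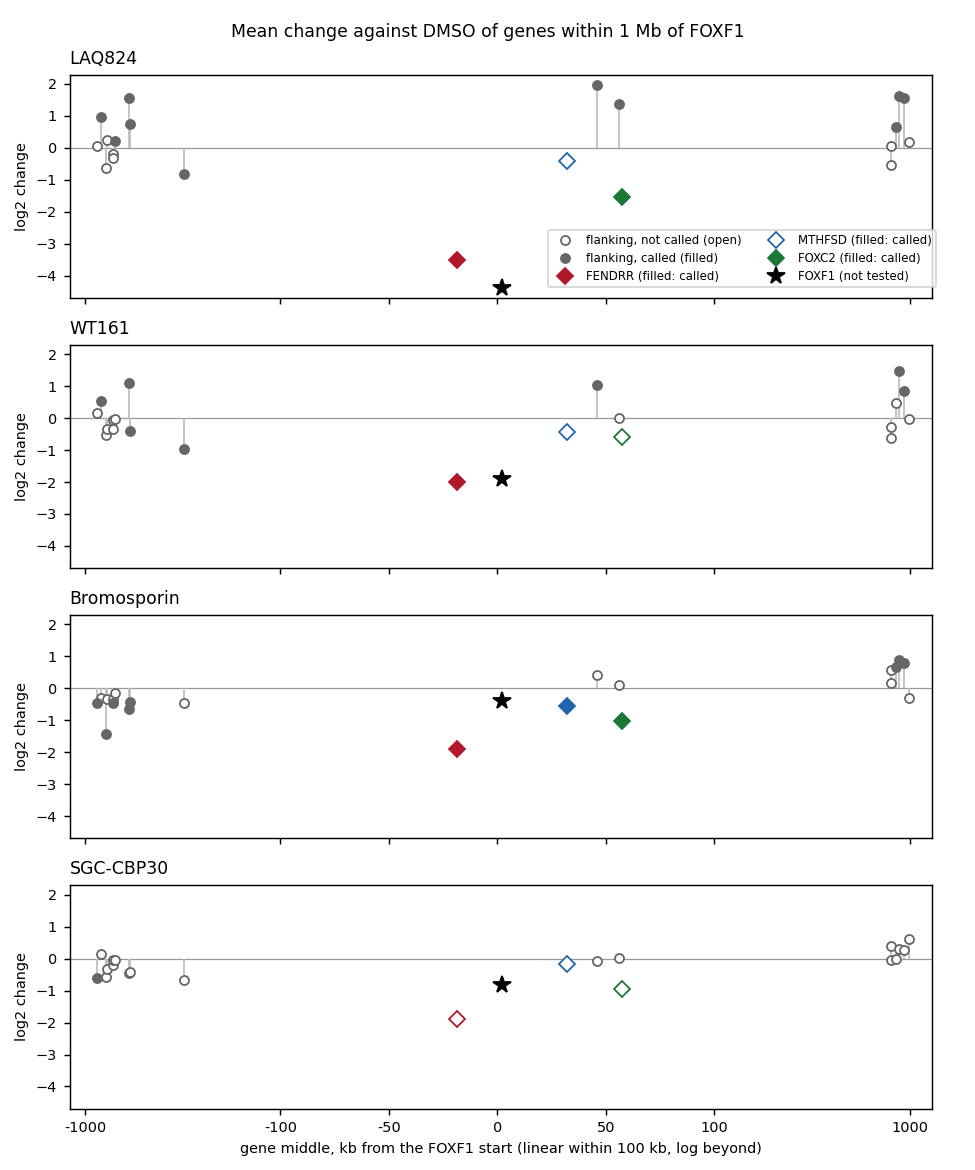
Mean log2 change against DMSO (y axis) of the genes within 1 Mb of FOXF1 by the distance of the gene's middle from the FOXF1 start in kb (x axis, linear within 100 kb and logarithmic beyond), for LAQ824, WT161, Bromosporin and SGC-CBP30, with filled symbols for genes called at an adjusted p under 0.05, open symbols for the rest and a star for FOXF1, which was not tested. Under LAQ824 FOXF1, FENDRR and FOXC2 lie at -4.37, -3.50 and -1.55, and FLJ30679 between MTHFSD and FOXC2 lies at 1.98.

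Other forkhead genes also fell under LAQ824. Of 41 forkhead genes outside the block 27 passed the filter, and 14 were called lower and 2 higher, where 24.6% and 28.4% of all genes were, with a median of -0.70 against 0.06 over all genes. FOXA2, a factor of endoderm and floor plate, read 0.749 and 0.401 TPM against 10.0 to 12.5 TPM (-2.97 ± 0.40), FOXL2, known from the ovary, 1.96 and 1.25 TPM against 14.004 to 17.1 TPM (-2.62 ± 0.28), and FOXD1, known from kidney stroma, 7.28 and 7.72 TPM against 22.7 to 25.8 TPM (-1.61 ± 0.22). FOXJ1, a factor of motile cilia and 1 of the 2 higher, read 2.97 and 3.16 TPM against 0 to 0.231 TPM in DMSO, on 0 to 4 reads there. The LAQ824 libraries, where it was high, were enough to pass it through the filter, so its call is no support for a rise. For WT161 the forkhead counts were 7 lower and 3 higher (14.3% and 17.7% of all genes), for Bromosporin 11 and 1 (23.4% and 12.4%), and for SGC-CBP30 2 and 0 (2.68% and 0.727%).

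Genes of the Hedgehog pathway, which acts on FOXF1 in mesoderm, changed in both directions. Of 17 listed, 15 passed the filter; LAQ824 had 7 lower and 5 higher, where 24.6% and 28.4% of all genes were, with a median of 0.06, equal to that of all genes. GAS1, a Hedgehog co-receptor, fell from 242 to 249 TPM in DMSO to 16.4 and 18.9 TPM (-3.73 ± 0.41), SMO, the signal transducer, to 15.5 and 16.1 TPM (-2.47 ± 0.28), and GLI3, a transcription factor of the pathway, to 11.1 and 10.99 TPM (-1.83 ± 0.27). Bromosporin had 8 of the 15 lower and 2 higher (23.4% and 12.4% of all genes) with a median of -0.71, WT161 5 and 4 (14.3% and 17.7%), and SGC-CBP30 1 and 0 (2.68% and 0.727%).

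Across the 20 mean compound changes, the 5 genes most like FOXF1 by Pearson correlation were not its neighbours, an order that rests in part on LAQ824 and WT161. Among 11120 genes with a mean of at least 5 TPM the highest Pearson correlations belonged to MEX3C (0.97), PRDM12 (0.97), GAS1 (0.97), CUL1 (0.97) and RCC2 (0.96), which lie on chromosomes 18, 9, 9, 7 and 1. FENDRR came at place 450 with r = 0.85, FOXC2 at place 1670 with r = 0.69 and MTHFSD at place 4035 with r = 0.33; FOXL1, under the level for a place, had r = -0.53. Without LAQ824 the correlations were 0.72 for FENDRR, 0.33 for FOXC2 and 0.15 for MTHFSD, and without both LAQ824 and WT161, the compounds farthest from the median of FOXF1, they were 0.57, 0.48 and -0.31. Without that pair MEX3C had r = 0.61, GAS1 0.67 and RCC2 0.58, while PRDM12 (0.48, place 474) and CUL1 (0.34, place 1333) came after FENDRR, which rose to place 202. Spearman's rho was 0.48 for FENDRR, 0.53 for FOXC2 and 0.14 for MTHFSD. All compounds share the DMSO libraries and 14 share a flow cell, within which r was 0.76 for FENDRR. These correlations describe the 20 compounds and were not tested.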

How the data were processed

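Poly-A RNA was sequenced by the authors, aligned with STAR to hg19 and, per the methods, quantified with RSEM against a UCSC reference; the labels list a further tool whose use is not given. The deposited values are TPM from the authors, scaled for gene length, with 1 column per sample that sums to a fixed total. Whole reads were recovered for 23643 of 23645 genes (values within 0.02 of a whole number) and gave depths and counting intervals only. Groups came from the labels. The members and gene lists were chosen with earlier results of these data known.

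Genes with at least 1 TPM in 2 of 52 samples (16359) were fitted on log2(TPM + 1) with limma 3.58.1 in R 4.3.3 (trend), each compound's 2 doses against DMSO averaged per concentration, with Benjamini-Hochberg adjustment over all genes and a threshold of 0.05. A fold change on this scale understates that of low genes. Axes were compared with compounds as units. Named genes were the members, the 4 called genes with the largest changes under LAQ824 in each list, and the 5 genes most correlated with FOXF1. A gene that this rule names is not reported here. The fit was tested on simulated data. Nothing states that libraries came from separate cultures, so p-values measure the spread between libraries, which may be technical. Alternatives covered the pseudocount, filter, scaling, reference, dose and left-out controls.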

Additional observations from a re-analysis of the deposited data

Results flagged for a closer look

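Changes against DMSO under entinostat had opposite signs at different times for FENDRR and MTHFSD, which flagged 4 results; with 1 library per point none of these differences was tested. For FENDRR the change went from 0.11 at 6 h to -3.01 at 24 h, a difference of -3.12 on the log2(TPM + 1) scale, the later value far outside its counting interval of ± 0.36. From 1 h to 6 h the FENDRR change differed by 0.20 (-0.09 and 0.11), both within counting error of 0. MTHFSD had changes of 0.28 at 1 h, 0.27 at 6 h and -0.04 at 24 h, so the 24 h value differed by -0.32 from that at 1 h and by -0.31 from that at 6 h, with counting intervals of 0.25, 0.19 and 0.20 around the 3 changes. With median-ratio scaling the MTHFSD change at 24 h was 0.05, so its sign depends on the scaling.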

How the results depend on the processing

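The 6 neighbour calls became 12 with all 4 DMSO libraries kept as separate samples. Genes called lower over the whole series rose there too, from 4032 to 4602 for LAQ824 and from 2336 to 3074 for WT161. For Bromosporin they rose from 3835 to 4832 and for SGC-CBP30 from 439 to 999. The neighbour calls were fewer with the low dose alone, which leaves 1 library per compound. They ranged from 5 to 8 when 1 DMSO library was left out, 5 without the second and 8 without the first 0.2% library. With only the compound and DMSO in the fit 1 call was higher instead of 0, FENDRR under Cpd50. For Cpd50 that fit called 1872 of 16359 genes higher and 3037 lower. Of the 6 lower calls both under LAQ824 passed and the other 4, under WT161 and Bromosporin, did not. The count of lower calls was still 5, MTHFSD under LAQ824 being among those gained (limma adjusted p = 0.00501). At the high dose alone 1 neighbour, FENDRR, passed between the axes instead of 0. The LAQ824 change of FOXF1 was -4.63 with a pseudocount of 0.1 instead of -4.37, and that of N1302 was -3.36 against the mean of both 6 h RH4-titled controls instead of -2.51. Against that mean the entinostat changes at 6 h were -0.16 for FOXF1 instead of -1.01, 1.10 for FENDRR instead of 0.11, 0.31 for FOXC2 instead of 0.02 and 0.51 for MTHFSD instead of 0.27. For DMSO 0.2% against 0.1%, with each library taken as a sample and the spread set mostly by the treated libraries, limma called 0 members, and the replicate block left 0 members called, and 2 genes in all with it and without; the numbers were not taken to pair the samples (correlation of deviations 0.07). The low depth of FOXL1 and of N1302 FENDRR limits those values.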
